A study of Rattus norvegicus with 12 samples.

Results

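Collagens are the trimeric proteins of the extracellular matrix, and each chain of a trimer is coded by a gene of its own. The rows of the deposited count table named as a collagen chain (Col, a type number, the letter a and a chain number) were 27 of 17337. They comprised 10 chains of the fibrillar types I, II, III, V, XI and XXVII, 5 chains of the basement membrane types IV, XV and XVIII, and 12 chains of other types. A filter on low counts left 25 chains for testing (10, 4 and 11 in the same order). The untested chains were Col6a4, with 41 counts in all libraries together, and Col15a1, with 75, and each was at 0 in at least 1 library. Col4a2, Col6a1 and Col6a3 were not among the 27 rows, and the class counts below cover only the chains with a row.

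The series calls the tissue middle brain. RNA was sequenced from male Sprague-Dawley rats aged 60 postnatal days, in 4 groups of 3 libraries. Sham rats were the controls. In the remaining 3 groups the bile duct had been ligated (BDL), which blocks bile outflow and leads to liver cirrhosis with hepatic encephalopathy, a disorder of brain function. The ligation had lasted 4 weeks. One BDL group received no vector, the AAV-GFP group an adeno-associated virus (AAV) that carries the gene of green fluorescent protein, and the AAV-VEGFC group an AAV with the gene of vascular endothelial growth factor C, which drives the growth of lymphatic vessels. Both vectors were given in 20 µl into the cisterna magna, the fluid space below the cerebellum. The labels name no injection for the sham group or the BDL group without a vector, and give neither the promoter of the vectors nor the cells they reached. Vector, injection and any handling shared by the vector groups therefore cannot be told apart. Nothing ties a library to a rat beyond the stated 3 rats per group, so the p-values measure the spread between these samples.

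Library totals ran from 40296297 to 51669067 counts. Levels are given in CPM, the usual unit of counts relative to library size, with library sizes corrected here by TMM factors. They are not divided by transcript length, so each chain is compared with itself across libraries and not with other chains. Changes are log2 fold changes ± SE. Adjusted p-values come from edgeR's quasi-likelihood test, with Benjamini-Hochberg adjustment over 12850 genes, and "rose" or "fell" means an adjusted p under 0.05. Summed over 6 neuron markers the libraries held 4409 to 7011 CPM, and over 6 markers of midbrain monoamine neurons 6.04 to 11.1 CPM, so the defining markers of that midbrain population were nearly absent. The libraries AAV-GFP 1 and AAV-VEGFC 1 stood apart within their groups over all tested genes, and sham 2 in its choroid plexus markers. Counts without these libraries are given beside the results.

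Fibrillar collagens assemble into rope-like fibrils. In this class types I and III form the bulk of fibrils in connective tissue, and types V and XI are minor components that start fibrils and limit their thickness. Type IV collagen forms the mesh of basement membranes, which in the brain surround the blood vessels and underlie the endfeet of astrocytes at its surface. The remaining types decorate fibrils, form filaments or anchor cells. Healthy brain parenchyma is poor in fibrillar collagen, and fibroblasts of the meninges and vessel walls are the known main source of types I and III there.

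Promoter sequences were compared first, because chains of one fibril type or one genomic neighbourhood are set side by side below. The 250 bases before the transcription start were taken from RefSeq for the GRCr8 assembly, which is not the rn6 build of the counts, and 22 of the 27 chains had an entry. Each sequence reads 5′ to 3′ along the + strand, which is the strand of Col5a1, Col11a1, Col27a1 and Col4a3, and capitals mark matches on either strand to TATAAA, the letters of a TATA box, to the CCAAT box, and to GGGCGG, the letters of a GC box. On the opposite strand the CCAAT box appears as ATTGG, and the GC box as CCGCCC. The first 3 are those of the chains with the largest falls that were called in both vector comparisons. The next is the 76 bases between the start sites of Col4a1 and Col4a2, which are read in opposite directions from this gap, and the last is that of Col4a3, which is read away from its neighbour Col4a4 across a gap of 412 bases.
Col5a1, chr3:31606630-31606879, + strand: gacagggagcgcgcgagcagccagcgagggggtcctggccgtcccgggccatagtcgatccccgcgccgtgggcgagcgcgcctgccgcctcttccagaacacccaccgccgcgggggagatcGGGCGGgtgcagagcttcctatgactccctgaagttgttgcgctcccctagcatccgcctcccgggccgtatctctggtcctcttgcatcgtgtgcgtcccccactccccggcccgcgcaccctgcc
Col11a1, chr2:204508886-204509135, + strand: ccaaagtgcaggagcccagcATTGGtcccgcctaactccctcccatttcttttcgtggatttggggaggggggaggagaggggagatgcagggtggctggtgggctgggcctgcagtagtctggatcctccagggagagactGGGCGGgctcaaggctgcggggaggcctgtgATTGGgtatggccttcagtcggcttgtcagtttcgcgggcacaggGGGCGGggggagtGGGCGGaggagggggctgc
Col27a1, chr5:81662658-81662907, + strand: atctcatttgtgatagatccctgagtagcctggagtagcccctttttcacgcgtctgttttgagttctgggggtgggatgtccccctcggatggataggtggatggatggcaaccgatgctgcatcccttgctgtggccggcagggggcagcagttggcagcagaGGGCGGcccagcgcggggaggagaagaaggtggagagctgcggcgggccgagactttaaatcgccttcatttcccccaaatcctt
Col4a1 to Col4a2 gap, chr16:84885521-84885596, + strand: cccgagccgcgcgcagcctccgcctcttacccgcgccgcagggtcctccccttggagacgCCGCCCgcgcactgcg
Col4a3, chr9:91323740-91323989, + strand: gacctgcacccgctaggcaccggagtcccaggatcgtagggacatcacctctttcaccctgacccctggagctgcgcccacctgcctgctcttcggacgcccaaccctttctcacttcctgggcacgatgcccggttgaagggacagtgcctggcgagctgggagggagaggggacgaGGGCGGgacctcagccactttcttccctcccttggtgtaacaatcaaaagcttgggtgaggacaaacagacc
None of these 5 stretches held TATAAA, and each held at least 1 GC box. Of the 9 matched chains that lay lower in every vector library than in every library without a vector, 7 held GGGCGG (77.8%), 2 held CCAAT (22.2%) and 0 held TATAAA. Among the other 13 matched chains GGGCGG stood in 5 (38.5%), CCAAT in 4 (30.8%) and TATAAA in 3 (23.1%). These 13 include Col6a4 and Col15a1, which were too low to be tested and held no GGGCGG. Over all 33469 promoter entries of the same length the shares were 30.5%, 34% and 12.9% for the same motifs in that order. These entries were not limited to genes tested in the brain libraries, and shares over the tested genes were not computed. Median GC content was 62.8% in the first group of chains, 59.6% in the other chains and 51.2% over all promoters. A match is a run of letters in this window and shows neither binding nor a cause.

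The first comparison, BDL against sham rats, asked what the ligation did to these genes in the brain. No collagen chain passed the test in either direction. Over all tested genes 14 were called (0.109%), and at an unadjusted p under 0.05 the counts were 0 of 25 chains against 758 of 12850 genes (5.90%). DESeq2 and limma voom also called 0 chains, with 0.842% and 2.70% of all genes called. Without sham 2, AAV-GFP 1 and AAV-VEGFC 1 the count was 0 of 26 chains, with 1.62% of all genes called. The median log2 fold change of the chains was 0.01, with 0.05 for the fibrillar, -0.06 for the basement membrane and 0.10 for the other class.

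The chain of each class with the smallest p in this comparison is given with its values. Col13a1, a transmembrane collagen of cell contacts, lay at 5.20, 4.50 and 4.35 CPM in the sham libraries and at 2.56, 3.66 and 1.95 CPM in the BDL libraries (-0.78 ± 0.41, adjusted p = 0.919). Its groups did not overlap, which was true of 25.0% of all tested genes in this comparison. Col18a1, the source of the endostatin fragment, had 6.47, 10.2 and 6.48 CPM in sham and 7.93, 13.5 and 11.3 CPM in BDL (0.50 ± 0.29, adjusted p = 0.947). Col1a1, the main chain of type I collagen, had 4.01, 7.26 and 5.95 CPM in sham and 4.85, 17.1 and 7.55 CPM in BDL (0.78 ± 0.54, adjusted p = 0.987), so that a single BDL library lay far above the sham range. Besides Col13a1, 3 tested chains parted the groups, Col11a1 and Col23a1 lower and Col17a1 higher in BDL.

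Adding either vector went with lower levels of the minor fibrillar chains. In AAV-GFP against BDL rats, 8 of 25 chains fell (32%) and 0 rose, against 668 of 12850 genes that fell (5.20%) and 127 that rose (0.988%). The 8 were 5 of 10 fibrillar chains (Col5a1, Col5a2, Col11a1, Col11a2 and Col27a1), 1 of 4 basement membrane chains (Col4a3) and 2 of 11 others (Col6a2 and Col16a1). In AAV-VEGFC against BDL rats, 10 of 25 chains fell (40%) and 0 rose, against 902 genes that fell (7.02%) and 374 that rose (2.91%). These 10 were the same 8 chains with Col5a3 and Col7a1. The 2 comparisons share the BDL libraries, so the overlap of their calls is not independent evidence.

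The median log2 fold change of the chains was -0.75 in AAV-GFP and -0.64 in AAV-VEGFC against BDL, while that of all tested genes was 0.01 and 0.00. By class the medians in AAV-GFP were -0.89 for fibrillar, -0.23 for basement membrane and -0.83 for other chains, and in AAV-VEGFC -0.86, -0.15 and -0.45. Without sham 2, AAV-GFP 1 and AAV-VEGFC 1, 10 chains fell in AAV-GFP and 10 in AAV-VEGFC, and 15.6% and 13.6% of all genes fell in those fits. DESeq2 called 12 chains lower in AAV-GFP and 11 in AAV-VEGFC, against 8.16% and 10.8% of all genes. With limma voom the counts were 13 and 10 chains, against 19.4% and 11.5% of all genes.

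**Figure D1:**
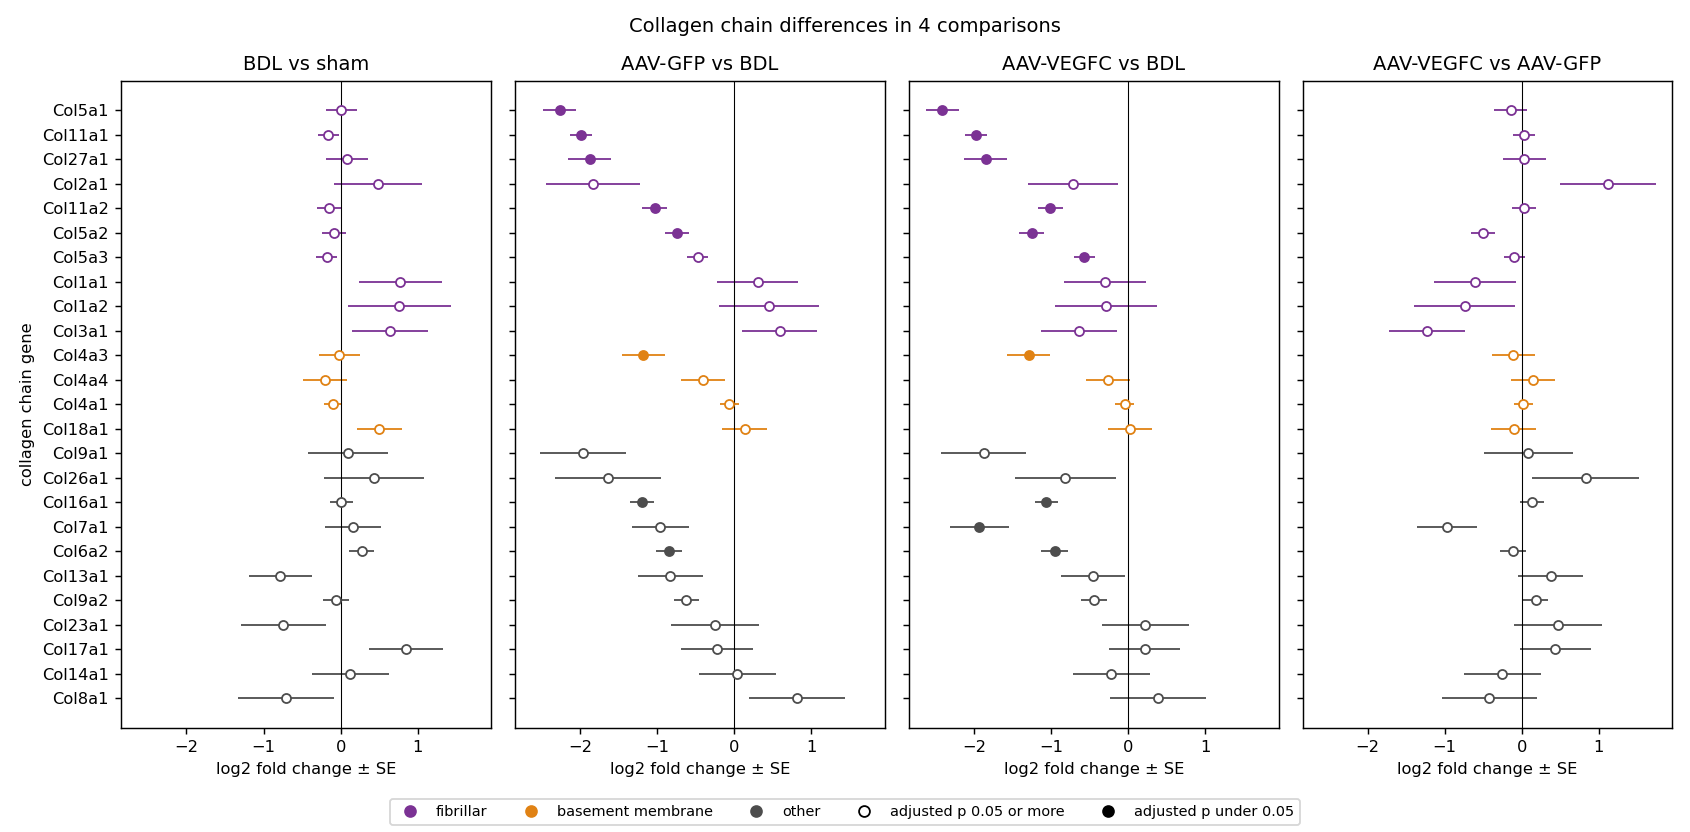
Log2 fold change of each of the 25 tested collagen chains, with SE bars, in the comparisons of the groups, with 1 panel per comparison, chains coloured by class and filled symbols for an adjusted p under 0.05. The called chains all lie below 0 in the comparisons with BDL, and none is called in BDL against sham or in AAV-VEGFC against AAV-GFP.

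Type V collagen, whose chains join type I fibrils and cap their thickness, gave the largest fall. Col5a1 lay at 22.5, 17.7 and 17.4 CPM in sham, 19.3, 22.5 and 16.2 in BDL, 3.30, 4.96 and 3.84 in AAV-GFP and 4.31, 3.99 and 2.64 in AAV-VEGFC libraries. All 6 vector libraries thus lay at 4.96 CPM or less and all 6 others at 16.2 CPM or more. The level was 4.80-fold lower in AAV-GFP than in BDL (-2.26 ± 0.22, adjusted p = 0.000137) and 5.31-fold lower in AAV-VEGFC (-2.41 ± 0.22, adjusted p = 8.00e-05).

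Its partner chain Col5a2 fell as well. It had 22.1, 23.5 and 24.7 CPM in sham, 22.1, 21.7 and 22.6 in BDL, 15.1, 13.5 and 11 in AAV-GFP and 10.4, 10.5 and 6.94 in AAV-VEGFC. The fall was -0.75 ± 0.15 in AAV-GFP (adjusted p = 0.0154), a call that was lost without BDL 1, BDL 3, AAV-GFP 2 or AAV-GFP 3, and -1.25 ± 0.16 in AAV-VEGFC (adjusted p = 0.000734). Whether Col5a1 and Col5a2 differ in their fall was not tested.

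Col5a3, the third chain of type V, had 50.9, 55.6 and 50.9 CPM in sham, 43.2, 41.5 and 54.2 in BDL, 39.2, 30.3 and 30.4 in AAV-GFP and 34.5, 32.6 and 26.5 in AAV-VEGFC. Every vector library lay below every other library, but the gap was narrow. The change was -0.47 ± 0.14 in AAV-GFP (adjusted p = 0.0684) and -0.57 ± 0.14 in AAV-VEGFC (adjusted p = 0.0247). The second of these was lost in the fit of those groups alone and without BDL 1, BDL 3 or AAV-VEGFC 3.

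Both tested chains of type XI, which lies in the core of cartilage fibrils and is also made outside cartilage, fell. Col11a1 had 19.3, 19.1 and 17.6 CPM in sham, 17.3, 17.6 and 15.2 in BDL, 3.46, 5.13 and 3.98 in AAV-GFP and 4.59, 4.35 and 3.85 in AAV-VEGFC. That is 3.98-fold lower in AAV-GFP (-1.99 ± 0.14, adjusted p = 3.43e-05) and 3.92-fold lower in AAV-VEGFC (-1.97 ± 0.14, adjusted p = 2.70e-05) than in BDL. Its spread within each group was small beside the distance between the libraries with and without a vector.

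Col11a2 made up the largest part of the summed fibrillar counts, with 132, 110 and 122 CPM in sham, 112, 105 and 111 in BDL, 39.9, 64.8 and 55.5 in AAV-GFP and 63.1, 47.5 and 52.7 in AAV-VEGFC. It was 2.05-fold lower in AAV-GFP (-1.04 ± 0.16, adjusted p = 0.00265) and 2.01-fold lower in AAV-VEGFC (-1.01 ± 0.16, adjusted p = 0.00258). Col2a1, the type II chain that also serves as a chain of type XI, stayed at or below 1.06 CPM in every library and was called in no comparison, although DESeq2 called it lower in AAV-GFP.

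Col27a1, a fibrillar collagen of cartilage and other developing tissues, had 27.9, 21.9 and 28.3 CPM in sham, 29.0, 27.5 and 26.2 in BDL, 4.78, 8.89 and 8.84 in AAV-GFP and 10.8, 7.32 and 4.88 in AAV-VEGFC. The highest vector library held less than the lowest library without a vector by a wide margin. The fall was -1.88 ± 0.28 in AAV-GFP (3.67-fold, adjusted p = 0.00239) and -1.85 ± 0.28 in AAV-VEGFC (3.59-fold, adjusted p = 0.00214).

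**Figure D2:**
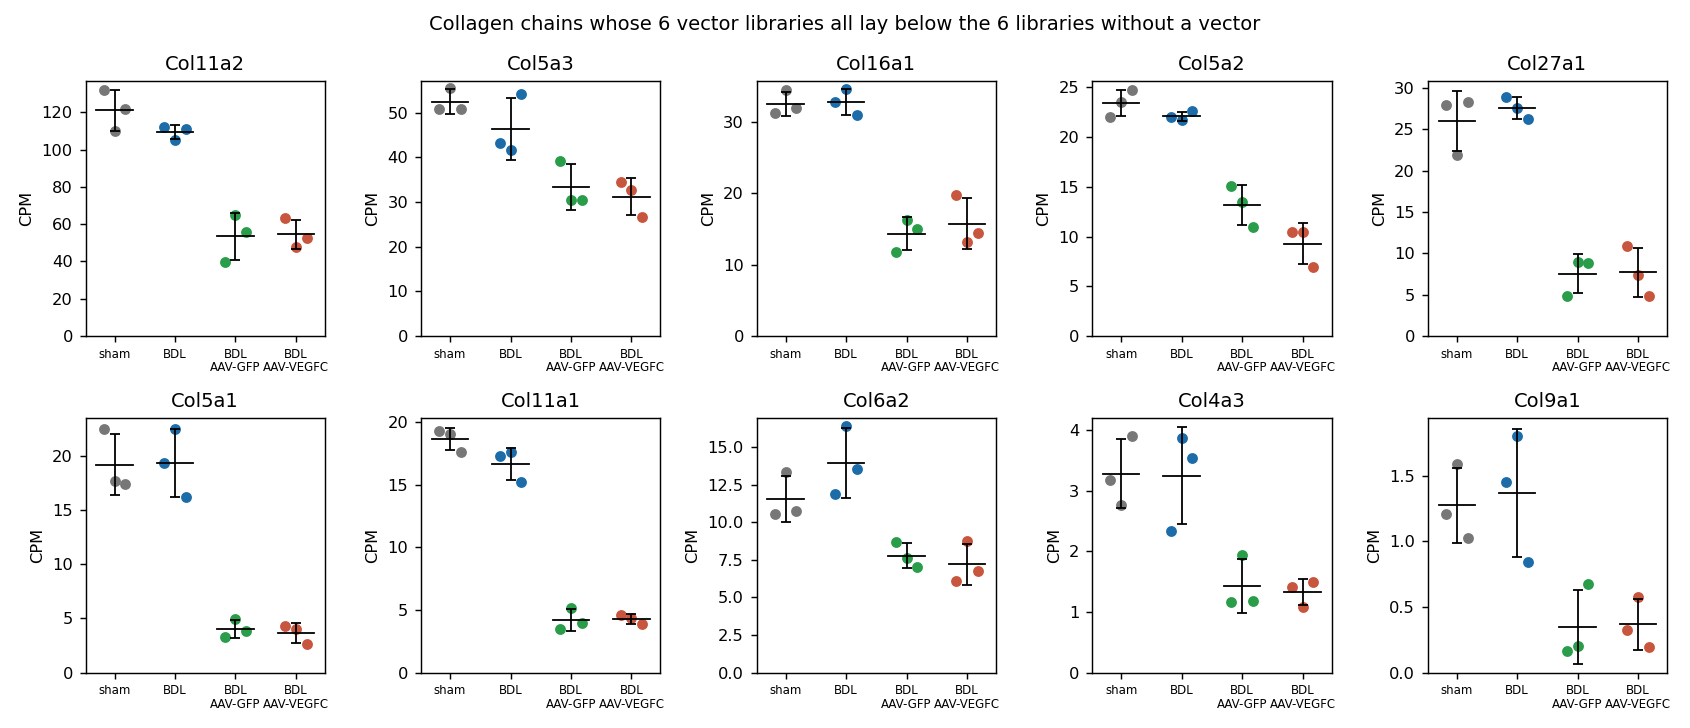
CPM in every library for the 10 chains whose 6 vector libraries all lie below the 6 libraries without a vector, in 1 panel per chain, with a point per library, a horizontal line at each group mean and error bars of 1 SD (n = 3). The gap is wide for Col5a1, with vector libraries at 2.64 to 4.96 CPM and the others at 16.2 to 22.5 CPM, and narrow for Col5a3, at 26.5 to 39.2 and 41.5 to 55.6 CPM.

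The major fibril chains of fibroblasts, Col1a1, Col1a2 and Col3a1, passed the test in no comparison. Col1a1 reached 19.6, 9.09 and 7.67 CPM in AAV-GFP and 4.72, 13.6 and 5.52 in AAV-VEGFC, within or near the range of the BDL libraries. Its change against BDL was 0.30 ± 0.53 in AAV-GFP and -0.30 ± 0.53 in AAV-VEGFC, neither called, and both signs turned under other settings. Col1a2, the second chain of type I, stayed between 0.455 and 3.29 CPM over the 12 libraries.

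Col3a1, the sole chain of type III, had 4.53, 6.48 and 6.05 CPM in sham, 4.88, 14.2 and 7.59 in BDL, 22.7, 8.14 and 9.26 in AAV-GFP and 3.10, 9 and 4.92 in AAV-VEGFC. BDL 2 and AAV-GFP 1 were the highest libraries for Col3a1, and also for Col1a1. The change was 0.59 ± 0.49 in AAV-GFP and -0.64 ± 0.49 in AAV-VEGFC against BDL, and the first turned sign without AAV-GFP 1. In the RefSeq gene order Col3a1 and Col5a2 are direct neighbours, and only Col5a2 passed the test in either vector comparison, while the difference between these genes was not tested.

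Markers of meningeal and perivascular fibroblasts, summed over 17 genes, were also highest in BDL 2 (307 CPM) and AAV-GFP 1 (343 CPM). The marker sums lay between 177 and 307 CPM without a vector and between 199 and 343 CPM with one, and 0 of 17 were called in any comparison. A large part of the sums without a vector was Pdgfra, also a marker of oligodendrocyte precursors, with means of 113 CPM in sham and 132 CPM in BDL. The overlap of the sums therefore does not speak for fibroblasts alone. The summed level of Col1a1, Col1a2 and Col3a1 overlapped as well, at 9.46 to 34.6 CPM without and 8.98 to 43.7 CPM with a vector. In BDL against sham 15 of 17 markers lay above 0 (6749 of 12850 over all genes). In AAV-VEGFC against AAV-GFP 17 of 17 lay below 0 (5994 of 12850). Col1a1, Col1a2 and Col3a1 had the same signs in both. Against BDL the markers split, with 9 of 17 below 0 in AAV-GFP and 12 of 17 in AAV-VEGFC. These directions were not tested. In bulk tissue, fewer cells of a type and less RNA per cell cannot be told apart.

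**Figure D3:**
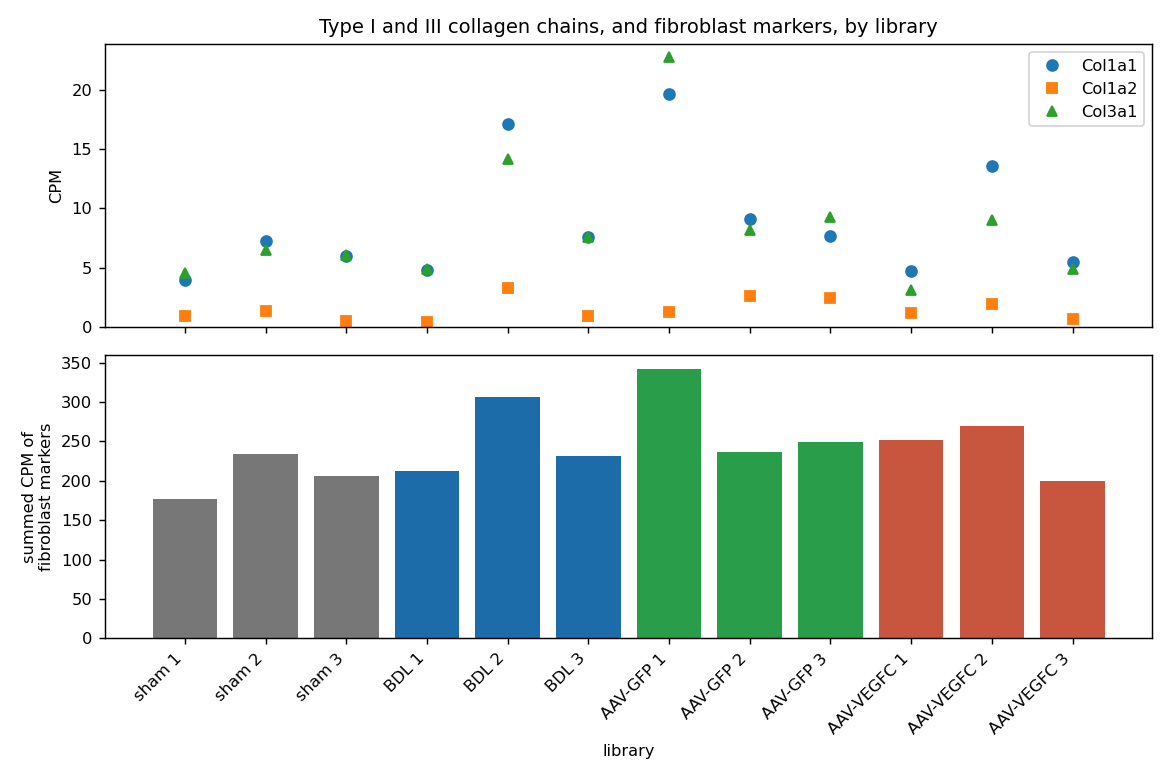
CPM of Col1a1, Col1a2 and Col3a1 in each of the 12 libraries (upper panel, 1 symbol per chain) and summed CPM of 17 fibroblast markers in the same libraries (lower panel, bars coloured by group). Col1a1, Col3a1 and the marker sum are all highest in BDL 2 and AAV-GFP 1, and the libraries with and without a vector overlap. The marker sum includes Pdgfra, also a marker of oligodendrocyte precursors, which makes up a large part of it in sham and BDL.

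Among the basement membrane chains, Col4a1, which with Col4a2 forms the general type IV network, had 46.1, 50.5 and 55.5 CPM in sham, 41.2, 45.3 and 55.7 in BDL, 44.5, 44.8 and 46.5 in AAV-GFP and 40.0, 47.1 and 50.6 in AAV-VEGFC. The ranges of all 4 groups overlapped. Its change against BDL was -0.07 ± 0.12 in AAV-GFP and -0.05 ± 0.12 in AAV-VEGFC, and the sign of each turned when BDL 3 was left out. Summed over 13 endothelial markers the same libraries held 420 to 553 CPM without and 679 to 818 CPM with a vector, and 5 of these genes rose in AAV-GFP and 7 in AAV-VEGFC against BDL. Pericyte and smooth muscle markers lay between 140 and 190 CPM without and between 185 and 247 CPM with a vector. Of these 11 genes 3 rose in AAV-GFP and 0 in AAV-VEGFC against BDL. Over all tested genes 0.988% rose in AAV-GFP and 2.91% in AAV-VEGFC. The part of these cells in the Col4a1 level was not tested.

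Col4a3 belongs to a different type IV network, best known from the kidney glomerulus and the inner ear. It had 3.19, 2.77 and 3.90 CPM in sham, 2.34, 3.87 and 3.54 in BDL, 1.17, 1.95 and 1.19 in AAV-GFP and 1.41, 1.08 and 1.49 in AAV-VEGFC. It fell by 1.18 ± 0.28 on the log2 scale in AAV-GFP (adjusted p = 0.0283) and by 1.29 ± 0.28 in AAV-VEGFC (adjusted p = 0.0145), and each call was lost without BDL 2 or BDL 3, the first also without AAV-GFP 1 or AAV-GFP 3, the second also in the fit of those groups alone (adjusted p = 0.0595). Its vector libraries lay at 1.08 to 1.95 CPM and the others at 2.34 to 3.90 CPM, without overlap.

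Col4a4, its chain partner and head-to-head neighbour, had 1.04, 1.08 and 1.29 CPM in sham, 1.17, 1.06 and 0.723 in BDL, 0.563, 0.841 and 0.831 in AAV-GFP and 0.706, 0.898 and 0.857 in AAV-VEGFC. Its groups overlapped in both vector comparisons, and its change in AAV-GFP was -0.40 ± 0.28. Col18a1 ranged from 8.10 to 16.6 CPM with a vector and from 6.47 to 13.5 CPM without one (0.13 ± 0.29 in AAV-GFP, 0.03 ± 0.29 in AAV-VEGFC, with signs that turned under other settings). Col15a1, another source of an anti-angiogenic fragment, did not exceed 0.595 CPM.

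In the other types, Col16a1, which binds to the surface of fibrils (a FACIT collagen), had 31.2, 34.4 and 31.9 CPM in sham, 32.8, 34.6 and 30.9 in BDL, 11.8, 16.2 and 15 in AAV-GFP and 19.7, 13.1 and 14.4 in AAV-VEGFC. It was 2.29-fold lower in AAV-GFP (-1.20 ± 0.15, adjusted p = 0.000898) and 2.08-fold lower in AAV-VEGFC (-1.06 ± 0.15, adjusted p = 0.00159). Here too no vector library reached the level of any library without a vector.

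Col6a2, a chain of the beaded filaments of type VI, had 10.6, 13.4 and 10.8 CPM in sham, 11.9, 16.4 and 13.6 in BDL, 8.68, 7.63 and 7.02 in AAV-GFP and 6.08, 8.74 and 6.77 in AAV-VEGFC. The fall was -0.84 ± 0.17 in AAV-GFP (adjusted p = 0.0133) and -0.95 ± 0.17 in AAV-VEGFC (adjusted p = 0.00519). The AAV-GFP call was lost without BDL 2, AAV-GFP 2 or AAV-GFP 3, and the AAV-VEGFC call in the fit of those groups alone (adjusted p = 0.0532).

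Col7a1, the chain of the anchoring fibrils under epithelia, had 1.74, 1.65 and 1.34 CPM in sham, 1.39, 2.38 and 1.53 in BDL, 0.584, 0.642 and 1.48 in AAV-GFP and 0.530, 0.419 and 0.439 in AAV-VEGFC. Only AAV-GFP 3 among the vector libraries was at the level of BDL. The fall was -1.93 ± 0.39 in AAV-VEGFC (3.81-fold, adjusted p = 0.0101), and the AAV-GFP difference of -0.96 ± 0.37 had an adjusted p of 0.164, which became 0.0362 (-1.52) without AAV-GFP 3.

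The type IX chains, FACIT collagens of cartilage fibrils, were not called in either comparison by the main edgeR fit. Col9a1 had 1.21, 1.59 and 1.03 CPM in sham, 1.45, 1.81 and 0.844 in BDL, 0.167, 0.199 and 0.673 in AAV-GFP and 0.328, 0.579 and 0.198 in AAV-VEGFC (-1.96 ± 0.56, adjusted p = 0.0640, and -1.88 ± 0.56, adjusted p = 0.0558). Col9a2 ranged from 6.81 to 9.07 CPM without and from 4.57 to 7.05 CPM with a vector (-0.62 ± 0.17 in AAV-GFP, adjusted p = 0.0521, and -0.44 ± 0.17 in AAV-VEGFC, adjusted p = 0.110), so that those ranges overlapped. DESeq2 and limma voom called both chains lower in AAV-GFP, and DESeq2 and the filter of at least 1 CPM in 3 libraries called Col9a1 lower in AAV-VEGFC. Some edgeR fits that left out libraries also called Col9a1 or Col9a2 lower in AAV-GFP, or Col9a1 lower in AAV-VEGFC. The remaining chains of this class, Col8a1, Col13a1, Col14a1, Col17a1, Col23a1 and Col26a1, passed in neither comparison in the main fit. None exceeded 5.20 CPM in a library. Limma voom called Col13a1 and Col23a1 lower in AAV-GFP.

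Without regard to any test, 10 of the 25 chains (40%) were lower in all 6 vector libraries than in all 6 libraries without a vector, and 0 were higher. Over all tested genes the shares were 10.4% lower and 7.92% higher. The 10 were 6 of 10 fibrillar chains, 3 of 11 other chains and 1 of 4 basement membrane chains. In AAV-GFP against BDL alone 12 chains parted the groups downwards and 0 upwards, against 20.0% and 18.2% of all genes, and in AAV-VEGFC 12 and 0, against 18.3% and 14.6%.

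The summed level of the fibrillar chains was 274 ± 10.6 CPM in sham, 263 ± 8.50 in BDL, 144 ± 8.79 in AAV-GFP and 126 ± 14.6 in AAV-VEGFC rats (SD, n = 3 each). Its ranges were 254 to 285 CPM without and 110 to 149 CPM with a vector. The other chains summed to 60.2 to 71.9 CPM without and 33.6 to 37.6 CPM with a vector, so those ranges did not meet either. The basement membrane chains overlapped, at 52.6 to 71.3 CPM without and 50.9 to 66.5 CPM with a vector. Most of that sum was Col4a1, with group means of 45.3 to 50.7 CPM. Col4a3, which fell, added at most 3.90 CPM in a library. As a share of all collagen counts, fibrillar chains made up 66.1% to 69.9% without and 51.6% to 61.8% with a vector, and basement membrane chains 13.9% to 18% and 22.7% to 31.3%.

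**Figure D4:**
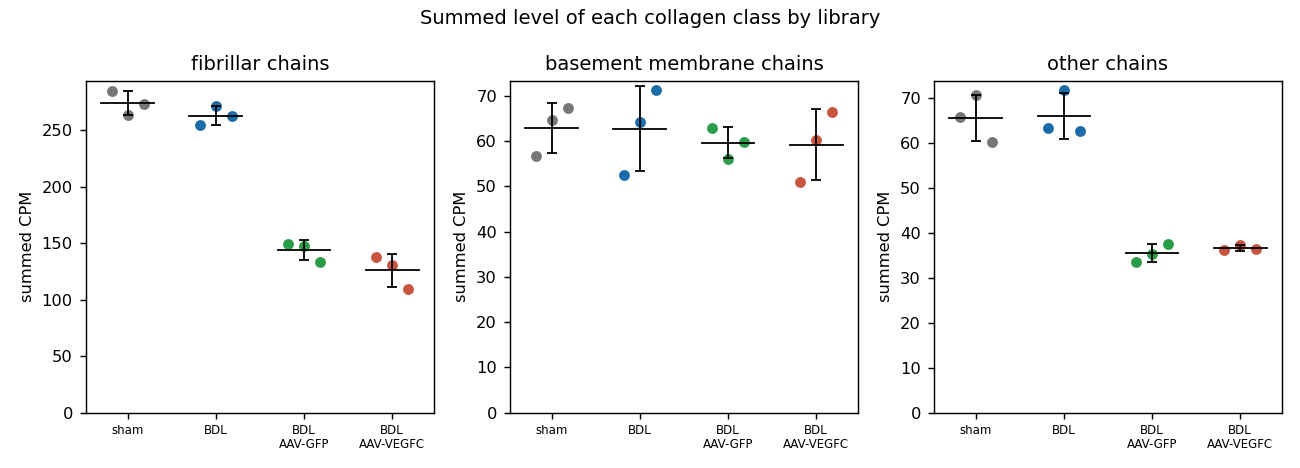
Summed CPM of the fibrillar, basement membrane and other collagen chains in each library (points), with group means (horizontal lines) and error bars of 1 SD (n = 3). Fibrillar and other sums separate the vector libraries from the rest without overlap, and basement membrane sums lie at 50.9 to 71.3 CPM throughout.

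Libraries with and without a vector also differed in composition. Rn18s, the 18S ribosomal RNA gene, took 0.137% to 0.306% of counts without and 0.430% to 1.16% with a vector, and its part in the collagen results was not tested. Of the marker genes in 12 cell type lists, 0 were called lower and 8 were called higher in each vector group against BDL. Over all tested genes 5.20% fell and 0.988% rose in AAV-GFP, and 7.02% fell and 2.91% rose in AAV-VEGFC. In AAV-GFP the 8 were 5 of 13 endothelial and 3 of 11 pericyte and smooth muscle markers. In AAV-VEGFC they were 7 of 13 endothelial and 1 of 5 pituitary and hypothalamus markers. Astrocyte markers summed to 3746 to 3979 CPM without and 3357 to 5400 CPM with a vector, and those of oligodendrocyte precursors to 258 to 308 and 261 to 334 CPM, so both overlapped. Microglia markers summed to 180 to 237 CPM without and 226 to 361 CPM with a vector. Those of oligodendrocytes summed to 10951.9 to 12745.2 and 10739.3 to 18428.5 CPM. Pituitary and hypothalamus markers summed to 1.13 to 4.16 CPM without and 1.58 to 85.1 CPM with a vector. Choroid plexus markers reached 311 CPM in sham 2, against 7.27 to 76.6 CPM in the other libraries.

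AAV-VEGFC against AAV-GFP, the comparison that sets VEGFC against GFP among rats given a vector, called no collagen chain. The edgeR test called 1 of 12850 genes (0.00778%), and DESeq2 (0.0780% of genes) and limma voom (0.00778%) likewise called 0 chains. Without the 3 libraries that stood apart 9.26% of all genes were called, but 0 of 26 chains. In the fit of all libraries, at an unadjusted p under 0.05, there were 3 of 25 chains, Col5a2, Col7a1 and Col3a1, all lower in AAV-VEGFC, against 4.37% of all genes in either direction and 2.44% lower. The chains had a median log2 fold change of 0.02. Col5a2 was lower in each AAV-VEGFC library than in each AAV-GFP library (-0.50 ± 0.16, adjusted p = 0.948), as was Col7a1 (-0.97 ± 0.39, adjusted p = 0.948). Without AAV-GFP 3 the Col7a1 difference was -0.41. Groups parted downwards in this way for 2.77% of all genes. Col3a1 differed by -1.23 ± 0.50, with AAV-GFP 1 far above the rest, and Col4a4, the basement membrane chain with the smallest p, by 0.14 ± 0.29.

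The genes that make, bind and remove collagen were counted against the shares of all tested genes. So were the non-collagen basement membrane, fibril-associated and TGF-beta signalling genes in the paragraphs below. Of all tested genes 5.20% fell and 0.988% rose in AAV-GFP, and 7.02% fell and 2.91% rose in AAV-VEGFC against BDL. At 10 to 32 genes a list, a difference of a gene or so from these shares sets no list apart. Of 32 tested genes for collagen synthesis and cross-linking, 3 fell in AAV-GFP and 2 in AAV-VEGFC against BDL and none rose, with medians of -0.08 and -0.01. P3h3, which hydroxylates prolines of new collagen chains, fell from 36.7 ± 2.85 to 13.7 ± 0.554 CPM in AAV-GFP (SD, n = 3; -1.42 ± 0.22, edgeR adjusted p = 0.00265) and to 13.1 ± 5.57 CPM in AAV-VEGFC (-1.49 ± 0.22, edgeR adjusted p = 0.00176). The others were P4ha2, a prolyl hydroxylase, in both comparisons and Bmp1, which trims the ends of procollagens, in AAV-GFP, and these calls were lost under several alternatives.

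Of 20 tested genes for collagen breakdown, 1 rose and 1 fell in AAV-GFP, and 2 rose and 1 fell in AAV-VEGFC, with medians of 0.08 and 0.05. Reck, a membrane inhibitor of matrix metalloproteases, was the gene that fell (-0.51 ± 0.09, adjusted p = 0.00518, and -0.72 ± 0.09, adjusted p = 0.000621). Ctsb, a lysosomal protease, rose in both and Ctsl, another, in AAV-VEGFC, and these calls were lost under several alternatives. Of 10 tested collagen receptors 0 passed in AAV-GFP and 1 fell in AAV-VEGFC, the receptor kinase Ddr2, whose call was lost without BDL 2 or BDL 3 and in the fit of those groups alone (adjusted p = 0.117).

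Of 15 tested non-collagen basement membrane genes 1 fell in AAV-GFP and 2 in AAV-VEGFC, with medians of -0.09 and -0.03. Agrn, the heparan sulfate proteoglycan agrin, fell from 164 ± 1.69 to 99.0 ± 13.7 CPM in AAV-GFP (SD, n = 3; -0.73 ± 0.13, edgeR adjusted p = 0.00625), and Nid2, a linker of laminin and type IV collagen, was the further one in AAV-VEGFC, a call lost under several alternatives. Of 15 tested fibril-associated genes 1 fell in each comparison, with medians of -0.30 and -0.27. It was Fbn1, the microfibril protein fibrillin, at 16.2 ± 1.75 CPM in BDL, 7.19 ± 1.05 in AAV-GFP (-1.17 ± 0.13, edgeR adjusted p = 0.000349) and 5.53 ± 0.417 in AAV-VEGFC (SD, n = 3 each; -1.55 ± 0.13, edgeR adjusted p = 6.54e-05).

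Of 19 tested genes of TGF-beta signalling, a pathway that induces matrix genes, 1 fell in AAV-GFP, and 1 rose and 3 fell in AAV-VEGFC, with medians of -0.06 and -0.01. Ltbp4, a carrier of latent TGF-beta, fell in both, its relative Ltbp2 and the receptor gene Tgfbr1 fell in AAV-VEGFC, and the matricellular gene Cyr61 rose there. Each of these calls was lost under at least 1 alternative. In BDL against sham the single call among these lists was Mmp8, the neutrophil collagenase, which had 0 reads in each sham library and 0.781 ± 0.407 CPM in BDL (SD, n = 3; edgeR adjusted p = 0.0153), a call lost when any sham library, BDL 2 or BDL 3 was left out. In AAV-VEGFC against AAV-GFP no gene of these lists was called.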

How the data were processed

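RNA sequencing covered 12 rat brain libraries in 4 groups, taken from the sample titles. Per the submitters' processing notes, FastQC, Trimmomatic 0.36, HISAT2 and featureCounts were used on the rn6 build, and the settings, annotation and strandedness were not given in the sources used here. Overlapping or antisense genes can therefore share reads. The deposited files hold the authors' raw counts of reads for each gene symbol, without normalization, and 0 columns were left unused. No libraries of a group agreed within sampling noise. From these counts edgeR 4.0.16 in R 4.3.3 computed TMM factors, kept genes with filterByExpr and fitted all 12 libraries together by quasi-likelihood, each group having its own mean. Each SE is the fold change divided by the square root of F. The test was tried first on simulated data. Of 18 pairs of libraries sharing a replicate number, 1 had deviations correlated above 0.1 (range -0.209 to 0.139). The labels name no pairing, and these correlations cannot exclude one.

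The members and gene lists were chosen with earlier results of these data known. Given in every library were chains called in any comparison, the chain with the smallest p of each class and comparison without a call, and the main fibril and network chains. From each list, called genes were named. A few further chains were named after their values were seen (Col9a1, Col9a2, Col2a1, and those parting BDL from sham). Alternatives were DESeq2 1.42.0 (size factors, and its own test), limma 3.58.1 voom with quality weights, no filter, at least 1 CPM in 3 libraries, the compared groups alone, a replicate block, an adjusted p under 0.1, unscaled CPM and leaving out each library. The fit without the 3 libraries that stood apart was chosen after seeing the data. Figures used matplotlib 3.10.9.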

Additional observations from a re-analysis of the deposited data

How the results depend on the processing

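Of 18 called chain results, 12 kept the call under all 20 alternatives that could end it (all but the looser threshold) and 0 turned sign. Col5a1, Col11a1, Col11a2, Col16a1 and Col27a1 were called in both vector comparisons under each of these. Counts of called chains against BDL, all lower, were 8 for AAV-GFP (13 with limma voom, 12 with DESeq2, and 6 to 11 leaving out 1 library) and 10 for AAV-VEGFC (8 to 11 leaving out 1 library, and 7 with the compared groups alone, where 2.39% of all genes fell). BDL against sham and AAV-VEGFC against AAV-GFP gave 0 chains under every alternative, while the genes called over all went from 14 to 347 (limma voom) and 332 (compared groups alone) in the first, and from 1 to 1193 (without the 3 libraries that stood apart) in the second. With the replicate block, 7 chains were called for AAV-GFP (3.79% of all genes), Col4a3 being lost (adjusted p = 0.0554), 10 for AAV-VEGFC (5.44%) and 0 in the other comparisons. The labels name no pairing by replicate number, and whether one exists was not settled. Col5a3 passed in AAV-GFP under 5 alternatives at the same threshold. Over all genes, calls for AAV-GFP numbered 795, but 1485 with DESeq2, 4687 with limma voom, 2023 with the compared groups alone and 3646 without the 3 libraries that stood apart. For AAV-VEGFC they numbered 1276, and 2362, 2488, 330 and 3123 in the same order.

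Signs turned for uncalled chains. With limma voom the values were -0.0249 (Col1a1) and -0.0158 (Col18a1) for AAV-GFP, and 0.00748 (Col1a1) and 0.0444 (Col4a1) for AAV-VEGFC against BDL. Without the 3 libraries that stood apart they were -0.24 (Col1a1), -0.0363 (Col3a1) and -0.18 (Col18a1) for AAV-GFP, and 0.0445 (Col4a1) for AAV-VEGFC. Leaving out 1 library gave, for AAV-GFP, -0.24 to 0.97 (Col1a1), -0.0366 to 1.10 (Col3a1), -0.16 to 0.0670 (Col4a1) and -0.18 to 0.35 (Col18a1), for AAV-VEGFC against BDL -0.94 to 0.35 (Col1a1), -0.14 to 0.0871 (Col4a1) and -0.16 to 0.20 (Col18a1), and for AAV-VEGFC against AAV-GFP -0.0253 to 0.24 (Col4a4). Chains at about 1 CPM or less, such as Col2a1, Col17a1 and Col26a1, rest on few reads, so that a difference may not have been detectable.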

Other observations

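The table also held genes whose symbols begin with Col but that code for no collagen chain, named here after their values were seen. Colq, which tethers acetylcholinesterase, Colec12, a scavenger receptor with a collagen-like stretch, and Col4a3bp, a ceramide transporter, were called in no comparison. The log2 fold changes in AAV-VEGFC against BDL were -0.63 ± 0.68 for Colq, -0.22 ± 0.26 for Colec12 and -0.23 ± 0.08 for Col4a3bp (edgeR adjusted p = 0.0864 for the last). Colec10, a collectin, was too low to be tested.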
